A study of Mus musculus with 7 samples.

Results

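The 32 genes described here encode the enzymes of glycolysis and of the pentose phosphate pathway, together with glucose and lactate transporters and the enzymes that decide the fate of pyruvate. They were taken from a list of glucose metabolism genes, of the 21887 protein-coding genes in the RefSeq gene table for mouse assembly GRCm38, and all 32 symbols were found. Each gene was read against the deposited peak lists of a chromatin immunoprecipitation sequencing (ChIP-seq) study of mouse embryonic stem cells (ESCs). A gene counted as having a peak nearby when a peak midpoint lay in its body or within 10 kb of it, and as having a peak at an end when a midpoint lay within 1 kb of either end of the annotated gene. Since a gene end need not be a promoter, peaks were also counted within 1 kb of a transcription start in the RefSeq promoter table, which holds 31 of the 32 genes (all but Slc2a3) and 17492 protein-coding genes in all. The last rule was added after the data were seen.

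The 4 peak lists came from parental ESCs, with no strain, clone or passage given. They were Oct1 (gene Pou2f1) in undifferentiated ESCs, Oct4 (gene Pou5f1) in undifferentiated ESCs, and Oct1 at day 3 and day 6 of differentiation towards mesoderm. Differentiating cells received Bmp4 for 2 days and then Rspo3 with the BMP receptor inhibitor LDN-193189 for 4 days, so that day 3 and day 6 both fell under the second medium. Each group was 1 library, and the 3 input libraries, the conditional knockout cells and the retinoic acid arm were not analysed here. No test across libraries was therefore possible, and every difference below compares lists of single libraries. Peak lists hold no expression values, so the identity of the cells could not be checked against marker genes.

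Glycolysis splits glucose into pyruvate and yields ATP without oxygen, and the pentose phosphate pathway draws on the same glucose phosphate to make NADPH and ribose for nucleotides. Naive ESCs are known to use both glycolysis and respiration, and the balance is reset as they differentiate. Oct1 and Oct4 belong to the POU family of transcription factors and recognise octamer motifs. Oct1 has been described as a regulator of metabolism, since fibroblasts that lack it were reported to use less glucose.

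The lists held 17709 peaks for ESC Oct1, 22817 for ESC Oct4, 4867 for day 3 and 7758 for day 6. The score is a whole number given by the authors without a unit, with medians of 106, 143, 194 and 508 in the same order. It was used only to rank peaks within 1 list, so ranks from different lists are set side by side and not compared. The lists give no read numbers, so sequencing depth is unknown. Peaks just inside the limit of 10 kb were those of Pfkfb4 at 9822 bp (ESC Oct1) and 9877 bp (ESC Oct4), and just outside it lay ESC Oct1 peaks of Slc2a1 at 10180 bp and Tkt at 10256 bp.

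More of the glycolysis and pentose phosphate genes had an Oct1 peak at a transcription start at day 6 than in ESCs, and so did all genes. In each list their share lay above that of all genes. Within 1 kb of a start, 6 of 31 genes, or 19.4%, had a peak in the ESC Oct1 list, where 6.79% of all protein-coding genes did. For ESC Oct4 the number was 3 of 31, or 9.68%, with 5.49% of all genes. At day 3 it was 8 of 31, or 25.8% (14.8% of all genes). At day 6 it was 24 of 31, or 77.4%, where 31.8% of all genes had one. By the wider rule of gene body or 10 kb, 17 of 32 genes had an ESC Oct1 peak (34.9% of all genes) and 18 an ESC Oct4 peak (39.9%). The same rule gave 14 genes at day 3 (24.4% of all genes) and 28 at day 6 (41.3%). At either gene end, the ESC Oct1 list had 6 genes (8.52% of all genes) and the ESC Oct4 list had 5 (8.91%). At day 3 this rule gave 6 genes (14.0%) and at day 6 it gave 20 (29.5%).

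The day 6 number was made up mainly of low-scoring peaks. With the lower-scoring 50% of the day 6 list set aside, 8 of 31 genes had a peak at a start, or 25.8%, where 18.6% of all genes did. At a gene end the number was then 5 of 32, or 15.6%, which is below the 17.4% of all genes. The lower-scoring 50% alone gave 16 of 31 genes, or 51.6%, where 13.5% of all genes had one. With the day 6 list shortened to its 4867 highest scores, 12 of 31 genes kept a peak at a start (23.0% of all genes) and 18 of 32 kept one in the gene or its 10 kb flanks (29.9%). The median rank of the best start peak was at 59.7% of the list for the 24 genes and at 42.2% for the 5562 protein-coding genes with such a peak, where a small percentage is a high score. At day 3 the higher-scoring 50% of peaks left 2 of 31 genes, Pfkfb4 and Pdk1, where 9.57% of all genes had a peak. In the ESC Oct1 list the same restriction left 5 of the 6 genes, or 16.1% of the 31, where 5.4% of all genes had a peak. At a gene end it left 4 of 6 (6.11%).

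**Figure D1:**
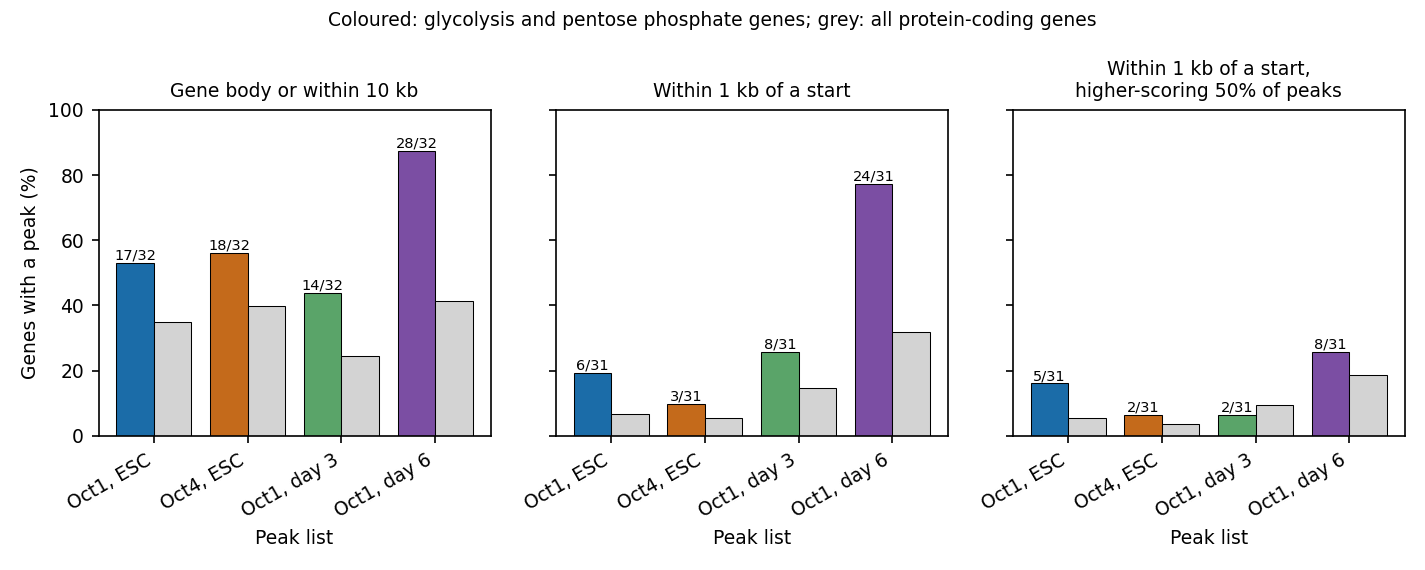
Percentage of genes with a peak in each list (x axis, 1 library each) for peaks within 10 kb of the gene or inside it, peaks within 1 kb of a start, and such start peaks among the higher-scoring 50% (panels); coloured bars are the glycolysis and pentose phosphate genes with their counts, and grey bars are all protein-coding genes. The day 6 bar stands at 24 of 31 genes for any start peak and at 8 of 31 when the lower-scoring 50% of peaks is left out.

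Peaks near these genes lay in different places in the undifferentiated and the differentiating cells. Of the 35 ESC Oct1 peaks near the 31 genes, 6 (17.1%) lay within 1 kb of a start, and the median distance from the nearest start was 11240 bp. Of 49 ESC Oct4 peaks, 3 (6.12%) did, with a median distance of 13507 bp. At day 3, 8 of 14 peaks (57.1%) lay at a start, with a median distance of 209 bp, and at day 6, 25 of 38 (65.8%). Over all genes of the promoter table, counted in the same way with each peak set against each gene it lay near, the shares at the gene's own start were 9.8% for ESC Oct1, 5.9% for ESC Oct4, 50.3% at day 3 and 60.2% at day 6. The same contrast between lists was therefore present over all genes.

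**Figure D2:**
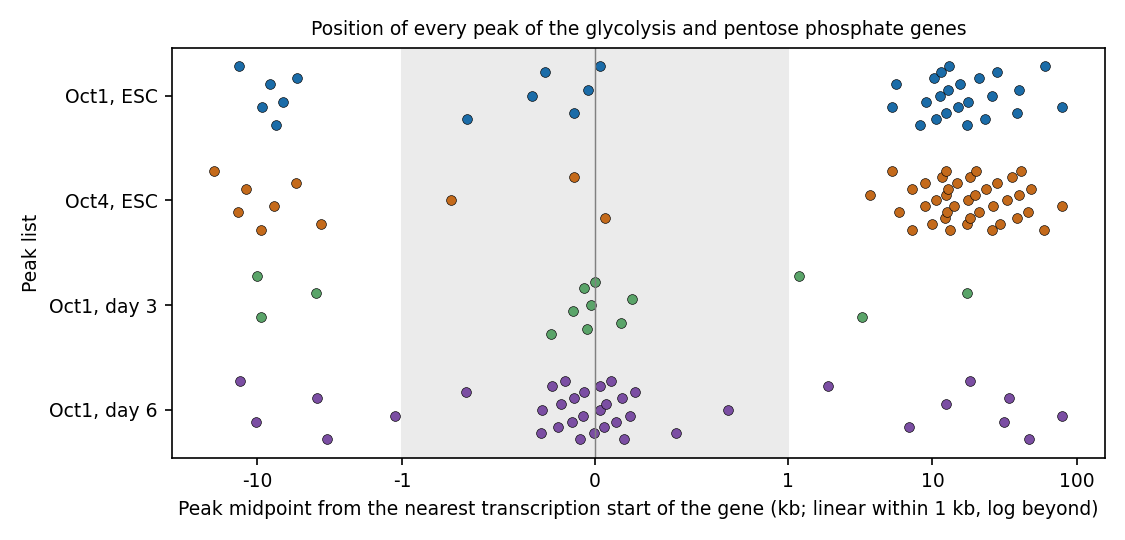
Distance of each peak midpoint from the nearest transcription start of its gene (x axis, kb, linear within 1 kb and logarithmic beyond), by list (rows), for the 31 genes with a known start; each point is 1 peak, spread vertically for legibility. The shaded 1 kb zone holds 6 of 35 ESC Oct1 peaks and 25 of 38 day 6 peaks.

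Most day 6 sites were not listed in ESCs, near these genes as near all genes. Of the 28 genes with a day 6 peak nearby, 5 had one that overlapped an ESC Oct1 peak by at least 1 bp (Hk1, Pfkfb4, Tpi1, Gapdh and Eno3), as did 15.9% of all protein-coding genes with a day 6 peak nearby. An ESC Oct4 peak was overlapped at 4 of the 28 (Hk1, Pfkfb4, Gapdh and Eno3), and at 12.0% of all genes with a day 6 peak nearby. Of the 14 genes with a day 3 peak nearby, 9 had one that overlapped a day 6 peak (Gpi1, Pfkfb4, Aldoa, Eno1, Eno3, Pdk1, Pdha1, Taldo1 and Slc16a1), as did 74.9% of all genes with a day 3 peak nearby. In ESCs, Oct1 and Oct4 coincided at 13 of the 17 genes with an Oct1 peak nearby, and at 70.5% of all genes with an ESC Oct1 peak nearby. Day 3 peaks overlapped an ESC Oct1 peak at 4 of the 14 genes (Pfkm, Pfkfb4, Aldoc and Slc16a3), and at 30.7% of all genes with a day 3 peak nearby. They overlapped an ESC Oct4 peak at 3 of the 14, the same genes without Pfkfb4, where the share over all such genes was 17.4%.

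By the presence of a start peak alone, 20 of 31 genes had one at day 6 and none in the ESC Oct1 list, as did 28.7% of all genes. Of these, 14 had a start peak in the day 6 list and in no other (17.4% of all genes). A start peak at both day 3 and day 6 was listed at 7 of the 31 genes, Pfkfb4 among them (13.0% of all genes). A start peak of both factors in ESCs was listed at Aldoc, Gapdh and Ldha (3.5% of all genes).

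**Figure D3:**
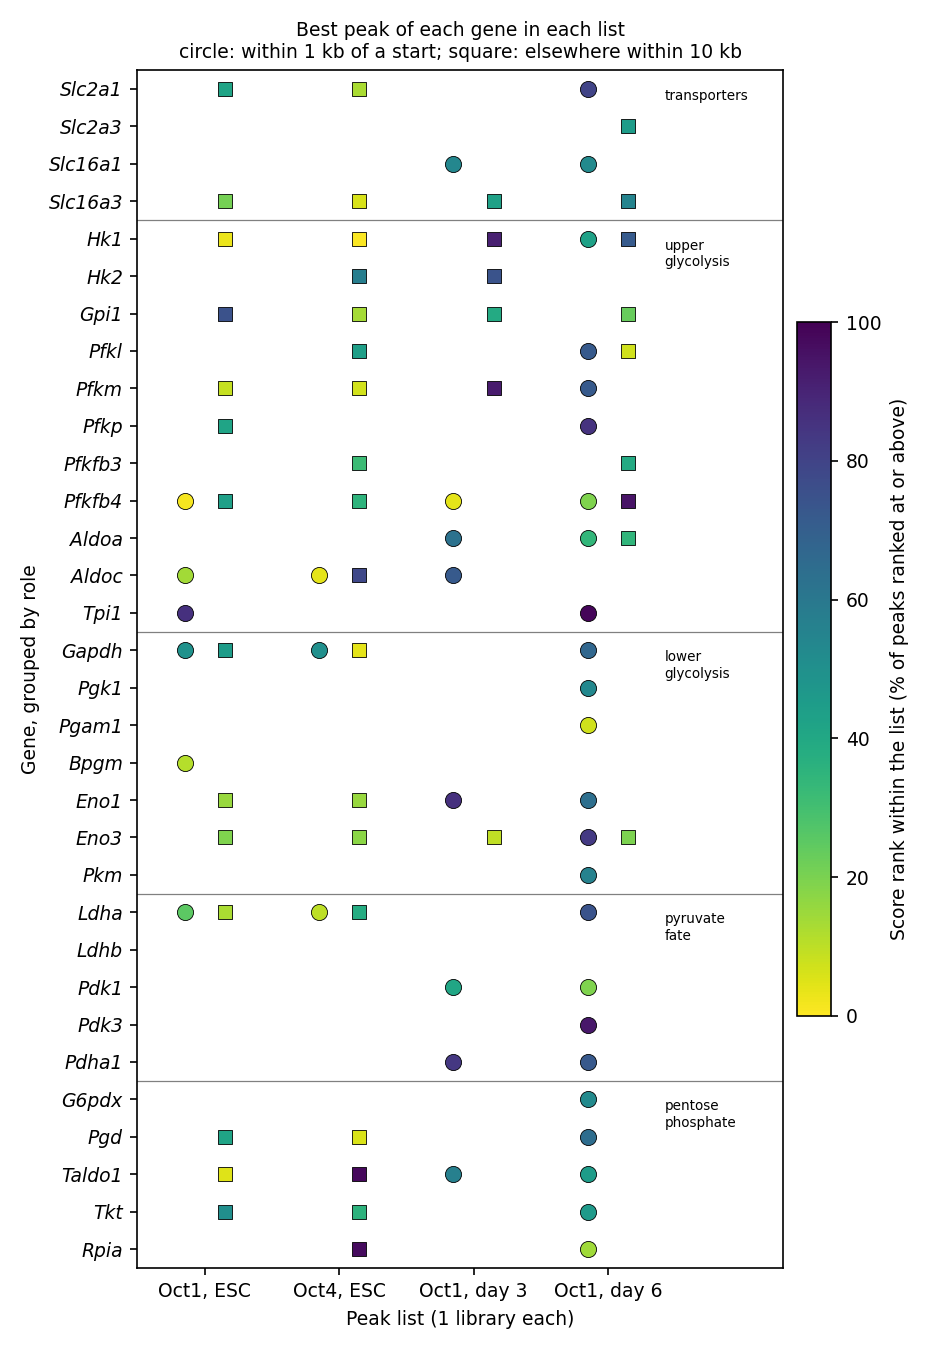
Best peak of each of the 32 genes (rows, by role) in each list (columns, 1 library each), with circles for peaks within 1 kb of a transcription start and squares for peaks elsewhere in the gene or within 10 kb; colour is the score rank as a percentage of the list, yellow for the highest scores. The day 6 column has circles at 24 genes, Pfkfb4 has circles in all 3 Oct1 columns, and Ldhb has no symbol; Slc2a3, with no start in the table, can show squares only.

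Among the transporters, which bring in glucose and carry lactate out, 2 of the 3 with a known start had a start peak at day 6 (31.8% of all genes) and 1 at day 3 (14.8%). None of the 3 had one in ESCs, where 6.79% of all genes had an Oct1 peak and 5.49% an Oct4 peak. Slc2a1 encodes the widespread basal glucose transporter. In ESCs it had 4 Oct1 peaks in its body, with scores of 71 to 122, and 2 Oct4 peaks with scores of 119 and 252, none of them at its start. At day 6 it had a single peak 180 bp after the start, at chr4:119108501-119109350, with score 204 and rank 6180 of 7758. Slc2a3, a high-affinity glucose transporter prominent in neurons, had 1 peak in all, at day 6 with score 566. That peak lay 8912 bp outside the gene and was closer to an end of Foxj2.

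Slc16a1, a monocarboxylate transporter that moves lactate across the plasma membrane, had a peak at its start at day 3 (score 176, rank 2614 of 4867) and at day 6 (score 478, rank 4092 of 7758). These overlapped, and no peak of either ESC list lay within 10 kb. Slc16a3, the lactate exporter of highly glycolytic cells, had 1 site shared by ESC Oct1 (score 203), ESC Oct4 (score 319, rank 1339 of 22817) and day 3 Oct1 (score 229), which lay 9352 to 9407 bp before its start and closer to an end of Ccdc57. Its day 6 peak was elsewhere, 1898 bp after the start, with score 454.

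The upper part of glycolysis, from glucose phosphorylation to triose phosphates, held the 1 start site that was listed at all 3 times for Oct1. Pfkfb4 encodes a bifunctional enzyme that makes and removes the fructose bisphosphate that activates phosphofructokinase. A peak at its start was listed in ESCs with score 1535 (chr9:108991301-108991990, rank 216 of 17709), at day 3 with score 1099 (chr9:108991331-108992250, rank 206 of 4867) and at day 6 with score 1057 (chr9:108991361-108992290, rank 1500 of 7758). The 3 peaks overlapped, and their midpoints lay 257, 112 and 77 bp before the start. No Oct4 peak overlapped this site, although Oct4 had 7 peaks elsewhere in or near the gene. Pfkfb4 was the 1 gene of 31 with a start peak in all 3 Oct1 lists, where 2.12% of all protein-coding genes had them. The rule of gene ends missed the site, because the annotated gene begins further upstream. That rule still counted Pfkfb4 in both ESC lists, through overlapping peaks at its other end. These had scores of 100 (Oct1, 521 bp from the end) and 153 (Oct4, 416 bp from it).

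The RefSeq promoter window of Pfkfb4 (GRCm38, chr9:108991652-108991951, plus strand) is shown because it carries this site. Each window printed here runs 5′ to 3′ from 250 bases before a start to 50 after it. Capitals mark the octamer (ATGCAAAT), the first 8 letters of the palindromic POU sequence known as MORE (ATGCATAT) and the GC box (GGGCGG), each on either strand.
Pfkfb4: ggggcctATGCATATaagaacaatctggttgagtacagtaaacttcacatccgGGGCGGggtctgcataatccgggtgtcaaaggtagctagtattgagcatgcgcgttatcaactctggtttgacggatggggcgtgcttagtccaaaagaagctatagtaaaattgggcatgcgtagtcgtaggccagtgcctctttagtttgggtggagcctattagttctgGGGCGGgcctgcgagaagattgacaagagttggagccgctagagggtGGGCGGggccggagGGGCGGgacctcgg
The window held no octamer and 4 GC boxes. It held the first 8 letters of MORE, which begin 243 bases before the start and which 0.770% of all 32851 windows contain. Among the 31 genes this match was found at Pfkfb4 alone, and it was searched for after this window had been seen. The ESC Oct1 peak began upstream of the window, so part of the site was not searched.

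Pfkfb3, the related bifunctional enzyme, showed the reverse combination of sequence and peaks. Its upstream start window (chr2:11553880-11554179, minus strand) contained the only perfect octamer among the 31 genes, and no list had a peak within 1 kb of a start of the gene.
Pfkfb3: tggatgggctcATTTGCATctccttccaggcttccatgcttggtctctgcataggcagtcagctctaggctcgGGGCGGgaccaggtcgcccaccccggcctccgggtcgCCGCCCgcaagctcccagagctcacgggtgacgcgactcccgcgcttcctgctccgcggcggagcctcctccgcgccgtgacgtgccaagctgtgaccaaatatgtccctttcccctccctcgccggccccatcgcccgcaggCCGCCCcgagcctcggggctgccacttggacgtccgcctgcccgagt
The octamer begins 239 bases before the start. The peaks of Pfkfb3 were an Oct4 peak in ESCs (score 176) and a day 6 Oct1 peak (score 652, rank 3051 of 7758), both inside the gene, the latter 18329 bp after a start.

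The hexokinases, which trap glucose in the cell as glucose phosphate, differed in where peaks lay. Hk1, the broadly expressed form, had a day 6 peak 141 bp after its downstream start (chr10:62339891-62340670, score 604, rank 3310 of 7758). Its highest-scoring site in ESCs lay 7445 bp outside the gene, nearer to an end of Tacr2, with an ESC Oct1 peak of score 743 (chr10:62260991-62261830, rank 504 of 17709), an ESC Oct4 peak of score 621 (rank 155 of 22817) and a day 6 peak of score 284. A further Oct4 peak inside Hk1 had score 464 (chr10:62313711-62314350, rank 343). Hk2, the inducible form, had an Oct4 peak of score 128 at 9515 bp outside the gene and a day 3 Oct1 peak of score 104, 1189 bp after its start, just beyond the limit of 1 kb. Hk2 had no ESC Oct1 and no day 6 peak.

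Gpi1, the isomerase of glucose phosphate, had no peak within 1 kb of its start in any list. An Oct1 site shared by the later lists lay 3924 bp before the start at day 3 (score 249) and 3889 bp before it at day 6 (score 959, rank 1806 of 7758), closer to an end of Garre1. A further day 6 peak (score 386, rank 4758 of 7758) lay 4757 bp outside the gene, at an end of Pdcd2l. In ESCs, Gpi1 had an Oct1 peak of score 71 and 3 Oct4 peaks with scores of 99 to 241 inside the gene.

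Phosphofructokinase catalyses the committed step of glycolysis, and each of its 3 subunit genes had a day 6 peak at a start and no start peak in any other list, as did 17.4% of all genes. The scores were 279 for Pfkl (the liver form, rank 5605 of 7758), 282 for Pfkm (the muscle form, rank 5585) and 155 for Pfkp (the platelet form, rank 6626), all in the lower-scoring 50% of the list. The Pfkm peak lay 691 bp after its start and closer to an end of Senp1. Pfkm also had an intragenic site in ESCs, with an Oct1 peak of score 346 (chr15:98120661-98121480, rank 1538 of 17709) and an Oct4 peak of score 303 (rank 1592 of 22817), which no later peak overlapped. Another intragenic site of Pfkm, with an ESC Oct1 score of 43 and an ESC Oct4 score of 82, was listed at day 3 with score 58. A second day 6 peak near Pfkl had score 1609 (chr10:77978261-77978880, rank 546 of 7758) but lay at an end of Cfap410.

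The aldolases, which split fructose bisphosphate, had peaks at different times. Aldoa, the form of muscle and most cells, had a start peak at day 3 (score 142, rank 3036 of 4867) and an overlapping one at day 6 (score 736, chr7:126798791-126799930, rank 2649 of 7758), and no peak nearby in ESCs. Aldoc, the brain form, had a start peak in ESCs for Oct1 (score 263, chr11:78322841-78323360, rank 2423 of 17709) and for Oct4 (score 355, chr11:78322841-78323410, rank 906 of 22817). It had one at day 3 (score 111, rank 3502 of 4867) and none at day 6. It was the 1 gene of 31 with a start peak at day 3 and not at day 6 (1.79% of all genes). An end of Spag5 lies within 1 kb of the same peaks.

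The windows of Aldoc (chr11:78322823-78323122, plus strand) and of Bpgm (chr6:34476106-34476405, plus strand) are shown because their sites were held in ESCs and not at day 6.
Aldoc: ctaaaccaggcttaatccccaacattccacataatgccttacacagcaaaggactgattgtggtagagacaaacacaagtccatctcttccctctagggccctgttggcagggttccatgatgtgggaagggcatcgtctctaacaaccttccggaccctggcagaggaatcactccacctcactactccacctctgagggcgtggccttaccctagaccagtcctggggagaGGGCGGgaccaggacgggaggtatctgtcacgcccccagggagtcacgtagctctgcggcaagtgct
Bpgm: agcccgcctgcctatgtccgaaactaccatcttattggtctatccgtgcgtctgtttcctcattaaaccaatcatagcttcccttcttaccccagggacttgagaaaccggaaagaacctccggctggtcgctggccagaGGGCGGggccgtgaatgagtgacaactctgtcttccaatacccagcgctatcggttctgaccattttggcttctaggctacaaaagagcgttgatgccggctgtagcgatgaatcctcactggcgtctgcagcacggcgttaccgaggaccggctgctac
Neither held the octamer, and each held 1 GC box. Bpgm makes bisphosphoglycerate and is best known from red blood cells. Its ESC Oct1 peak lay 36 bp before the start (chr6:34476011-34476630, score 296, rank 1988 of 17709). The nearest Oct4 peak lay 150816 bp away, and the later Oct1 lists had their nearest peak at 405669 bp (day 3) and 405659 bp (day 6). Bpgm was the 1 gene of 31 with a start peak in ESC Oct1 and in neither later list (2.93% of all genes). Its window held 3 CCAAT boxes (CCAAT, either strand), which lay 217, 183 and 76 bases before the start. A CCAAT box was found at 14 of the 31 genes and at 42.3% of protein-coding genes.

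Tpi1, which interconverts the triose phosphates, had a weak peak at its start in ESCs (score 60, rank 15246 of 17709) and at day 6 (score 58, rank 7647 of 7758). The 2 peaks overlapped and are close to an end of Usp5.

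In the lower part of glycolysis, from the triose phosphates to pyruvate, 6 of 7 genes had a day 6 peak at a start (31.8% of all genes). Gapdh, which oxidises the triose phosphate, had 1 site listed in ESCs and at day 6, 662 to 747 bp before its start. The site had scores of 109 for ESC Oct1 (chr6:125166151-125166720, rank 8684 of 17709), 142 for ESC Oct4 (rank 11460 of 22817) and 332 for day 6 Oct1 (rank 5193 of 7758), and no day 3 peak. A second day 6 peak of score 296 lay 423 bp after the start. In the ESC Oct4 list, the highest-ranked peak near Gapdh had score 348 (chr6:125172721-125174270, rank 941 of 22817) and lay 7028 bp outside the gene and closer to an end of Ncapd2.

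Pgk1 and Pkm catalyse the ATP-yielding steps, and each had a single peak, at its start, at day 6. The scores were 472 for Pgk1 (rank 4131 of 7758) and 445 for Pkm (rank 4319). Pgam1, which moves the phosphate of phosphoglycerate, likewise had a single peak, and it was the strongest day 6 start peak among the 31 genes (chr19:41911601-41912190, score 1606, rank 548 of 7758). Eno1, the main enolase, had overlapping start peaks at day 3 (score 75, rank 4196 of 4867) and day 6 (score 363, rank 4940 of 7758), while its ESC peaks of either factor lay more than 7 kb from a start. An ESC Oct4 peak of score 88 lay 89 bp from the other end of Eno1. Eno3, the muscle enolase, had a day 6 peak of score 172 that lay 281 bp before its start, close to an end of Pfn1, and one of score 164 that lay inside the gene, 740 bp from its annotated upstream boundary. Other peaks near Eno3, with score 646 at day 3 (rank 459 of 4867) and 1046 at day 6 (rank 1525 of 7758), lay at ends of Rnf167 and Slc25a11.

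The window of Pgam1 (chr19:41911621-41911920, plus strand) and that of Pdk1 (chr2:71872974-71873273, plus strand) are shown as starts where Oct1 peaks were listed in differentiating cells and not in ESCs.
Pgam1: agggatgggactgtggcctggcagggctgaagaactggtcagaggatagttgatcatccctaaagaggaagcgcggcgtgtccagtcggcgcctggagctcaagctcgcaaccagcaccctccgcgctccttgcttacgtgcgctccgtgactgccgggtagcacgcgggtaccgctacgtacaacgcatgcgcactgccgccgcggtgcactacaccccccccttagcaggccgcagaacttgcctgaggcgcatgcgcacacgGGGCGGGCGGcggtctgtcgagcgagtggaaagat
Pdk1: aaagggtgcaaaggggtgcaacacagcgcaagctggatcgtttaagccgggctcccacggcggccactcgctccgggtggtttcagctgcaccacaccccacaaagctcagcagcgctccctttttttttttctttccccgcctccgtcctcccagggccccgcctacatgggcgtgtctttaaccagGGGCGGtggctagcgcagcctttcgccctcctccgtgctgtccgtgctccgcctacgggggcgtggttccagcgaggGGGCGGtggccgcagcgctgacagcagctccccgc
Both windows held 2 GC boxes and no octamer. In Pgam1 the GC boxes overlap, beginning 16 and 20 bases into the transcript.

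Of the 5 genes that set the fate of pyruvate, 4 had a start peak at day 6 (31.8% of all genes), 2 at day 3 (14.8%) and 1 in each ESC list (6.79% for Oct1 and 5.49% for Oct4). Pdk1 encodes a kinase that switches off pyruvate dehydrogenase. It had no peak nearby in either ESC list, a start peak at day 3 (score 239, chr2:71872881-71873530, rank 1992 of 4867) and an overlapping one at day 6 (score 1052, chr2:71872831-71873730, rank 1510 of 7758). Pdk3, a kinase of the same family, had a day 6 peak alone, with score 90 (rank 7273 of 7758). Pdha1, the catalytic subunit that these kinases phosphorylate, had start peaks at day 3 (score 79, rank 4078 of 4867) and day 6 (score 277, rank 5622 of 7758).

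Ldha, the lactate dehydrogenase subunit that favours lactate formation, had peaks at a different start in ESCs and at day 6. In ESCs, an Oct1 peak of score 178 (chr7:46846701-46847250, rank 4460 of 17709) and an Oct4 peak of score 268 (chr7:46846651-46847300, rank 2282 of 22817) covered the downstream start. At day 6, a peak of score 257 (chr7:46845441-46846060, rank 5779 of 7758) covered the upstream start and did not overlap them. A higher-scoring ESC Oct1 peak lay outside the gene, 6659 bp before the nearest start (chr7:46838881-46839410, score 279, rank 2258 of 17709). The windows of both starts (downstream chr7:46846832-46847131, upstream chr7:46845554-46845853, plus strand) show how their sequences differ.
Ldha downstream: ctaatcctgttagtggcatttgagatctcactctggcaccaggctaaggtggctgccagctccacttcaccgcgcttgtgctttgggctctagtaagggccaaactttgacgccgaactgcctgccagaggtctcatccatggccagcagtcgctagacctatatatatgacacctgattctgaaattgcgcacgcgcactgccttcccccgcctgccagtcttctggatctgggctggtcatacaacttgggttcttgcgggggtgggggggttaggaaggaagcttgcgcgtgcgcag
Ldha upstream: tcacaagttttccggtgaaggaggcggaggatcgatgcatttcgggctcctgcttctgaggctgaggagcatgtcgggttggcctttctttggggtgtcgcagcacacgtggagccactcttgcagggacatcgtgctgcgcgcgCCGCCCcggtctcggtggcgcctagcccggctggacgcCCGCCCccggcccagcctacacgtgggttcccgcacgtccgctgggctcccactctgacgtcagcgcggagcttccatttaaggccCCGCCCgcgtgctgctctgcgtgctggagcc
The downstream window held no octamer and no GC box, and its GC content was 56.7%. The upstream window had a GC content of 67.3% and held 3 GC boxes and 5 matches to the core of the hypoxia response element (ACGTG on either strand), of which 4 lie in pairs on the 2 CACGTG palindromes of the window. Ldhb, the subunit that favours the reverse reaction, had no peak in any list within 10 kb, and the nearest peaks lay 30678 bp away for ESC Oct4 and 103079 bp away at day 6.

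All 5 pentose phosphate genes had a day 6 peak at a start, where 31.8% of all genes did. None had an ESC peak of either factor there, where 6.79% of all genes had an Oct1 peak and 5.49% an Oct4 peak. G6pdx encodes the rate-limiting dehydrogenase of the NADPH-making branch, and its day 6 peak had score 481 (rank 4073 of 7758). Pgd, the second NADPH-making enzyme, had a day 6 peak of score 354 (rank 5009) and an intragenic site in ESCs with an Oct4 score of 320 (chr4:149159891-149160560, rank 1252 of 22817) and an Oct1 score of 122. Of the non-oxidative branch, which recycles ribose phosphate to glycolysis, Rpia had the highest day 6 score (chr6:70791801-70792380, score 1214, rank 1115 of 7758). Tkt had a score of 557 (rank 3560). Taldo1 had a start peak at day 3 (score 165, rank 2767 of 4867) and an overlapping one at day 6 (score 564, rank 3513 of 7758). By the rule of gene ends, Taldo1 was the 1 gene with a peak in all 3 Oct1 lists (2.29% of all genes), since its ESC Oct1 peak of score 124 lay 424 bp outside its other end. An ESC Oct4 peak of score 55 lay inside the gene, 941 bp from that end. A higher-scoring ESC Oct1 peak (chr7:141407471-141408000, score 499, rank 870 of 17709) lay at an end of Gatd1.

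The 4 X-linked genes, Pgk1, G6pdx, Pdk3 and Pdha1, all had a day 6 start peak, and none had an ESC peak of either factor in the gene or within 10 kb, where 8.45% of X-linked genes had an Oct1 peak and 7.71% an Oct4 peak. Of the 817 protein-coding X-linked genes in the promoter table, 14.7% had a day 6 start peak, against 33.1% of the autosomal ones. In the ESC Oct1 list these shares were 4.04% and 7.01%. Of the 27 autosomal glycolysis and pentose phosphate genes, 20 had a day 6 start peak and 6 an ESC Oct1 one.

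GC content was averaged over the start windows of each gene. The median over genes was 61.0% for the 31 genes (50.6% to 73.7%) and 56.3% for the 17492 protein-coding genes. When all genes were divided into quartiles of promoter GC content, 0 of the 31 genes fell in the lowest, 6 in the second, 15 in the third and 10 in the highest. The day 6 share moved with GC content across all genes, from 2.31% in the lowest quartile to 17.6%, 44.4% and 63.8% in the highest. In the same quartiles, 4 of 6, 13 of 15 and 7 of 10 of the glucose metabolism genes had a day 6 start peak. The counts in the second and the third quartile lay above the share of all genes there, and the count in the highest lay close to it. For ESC Oct1 the order differed, with 2.77%, 12.2%, 9.53% and 2.41% of all genes from the lowest to the highest quartile. There, 3 of 6 genes in the second quartile (Pfkfb4, Aldoc and Bpgm), 3 of 15 in the third and 0 of 10 in the highest had a start peak. The split by GC content was added after the data were seen, and the part of GC content in the day 6 count was not tested.

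**Figure D4:**
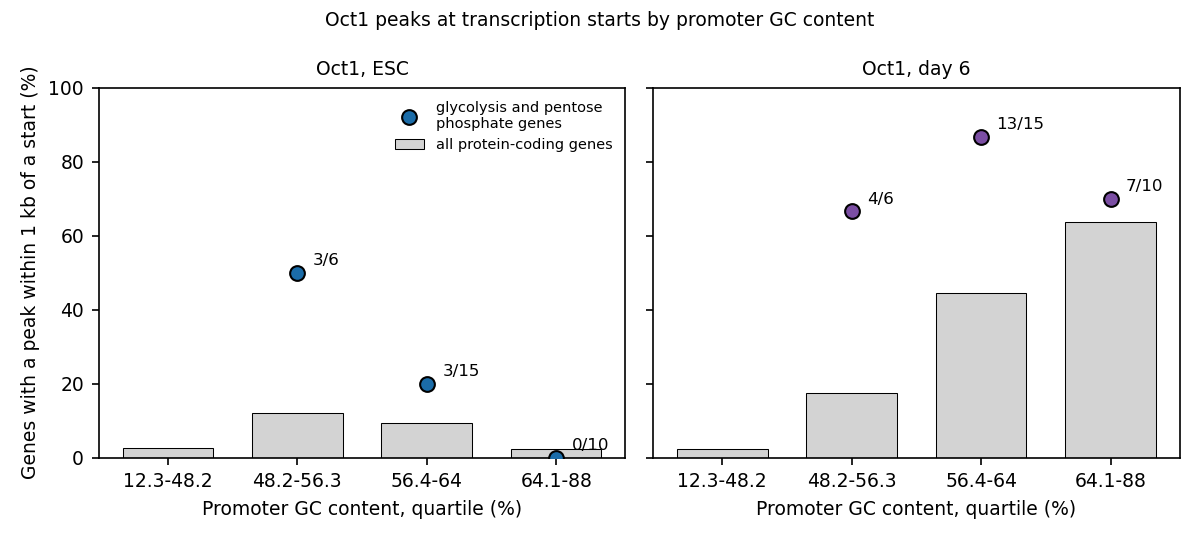
Percentage of genes with an Oct1 peak within 1 kb of a start (y axis) by quartile of promoter GC content (x axis), in ESCs (left) and at day 6 (right); grey bars are all protein-coding genes and points are the glycolysis and pentose phosphate genes with their counts. At day 6 the bars climb from 2.31% to 63.8%, and the points lie at 4 of 6, 13 of 15 and 7 of 10 genes.

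A perfect octamer was found at 1 of the 31 genes (Pfkfb3) and at 1.9% of protein-coding genes, and in 1.74% of all 32851 promoter windows. It was present in 6.19% of the 1566 windows that met an ESC Oct1 peak, in 3.58% of the 3213 windows that met a day 3 peak and in 1.44% of the 7032 windows that met a day 6 peak. Among the windows of the 31 genes, none of the 5 that met an ESC Oct1 peak, of the 11 that met a day 3 peak and of the 26 that met a day 6 peak held one. The GC box was present in 35.7% of all windows and in 79.8% of those that met a day 6 peak, and 21 of the 26 windows of these genes that met a day 6 peak held it. The hypoxia response core was found at 16 of the 31 genes, with 23.2% of protein-coding genes holding it in at least 1 window. Of the 26 windows that met a day 6 peak, 11 held this core, where 28.7% of all windows meeting a day 6 peak did. These are matches of letters in windows of 300 bases, and other bases of the peaks were not searched.

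Other metabolic gene lists differed in their day 6 shares, which are set here beside the 77.4% of the 31 genes and the 31.8% of all protein-coding genes. Within 1 kb of a start, a day 6 peak was listed at 9 of 14 genes of the tricarboxylic acid cycle (64.3%) and at 37 of 62 nuclear genes of oxidative phosphorylation (59.7%). It was listed at 8 of 18 regulators of glucose metabolism such as Hif1a and Myc (44.4%), and at 10 of 36 further glucose metabolism genes (27.8%). In the ESC Oct1 list, where 6.79% of all genes had a start peak, the counts were 1 of 14, 7 of 62, 2 of 18 and 4 of 36. The start rule was added after the data were seen, and the rule of gene ends set the lists closer together. By gene ends, 20 of 32 genes (62.5%) had a day 6 peak, where 29.5% of all genes did. The tricarboxylic acid cycle then had 10 of 17 (58.8%) and oxidative phosphorylation 37 of 74. The regulators had 9 of 20 and the further glucose metabolism genes 14 of 42. No test of these differences was made, since the lists were chosen with earlier results of these data known.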

How the data were processed

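The authors deposited 1 peak list per library with chromosome, start, end, name and a whole-number score without a unit. Novoalign 3.8.2 and build mm10 (GRCm38) are named in the submitters' processing notes. The peak caller, its threshold and the use of inputs are not given in the sources used here.

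Genes and transcription starts came from RefSeq tables of GRCm38.p6. Coordinates are 1-based. Exons were not used here, so peaks within genes carry no exon or intron label. Peaks were placed by their midpoint, peaks sharing at least 1 bp were treated as 1 site, and motifs were searched on both strands of 300-base windows, with pandas 2.3.3 and numpy 2.4.6 under Python 3.11.15. The functions were tested on simulated peaks. With 1 library per group there was no test, and counts are set beside all protein-coding genes under the same rule.

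All 32 genes are accounted for. Those with a peak at a gene end, a score in the highest 10% of a list, or an end peak in at least 2 Oct1 lists are given with values. The genes, lists and rules were chosen with earlier results of these data known.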

Additional observations from a re-analysis of the deposited data

How the results depend on the processing

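Among counts and shares, 21 were recomputed, giving 78 alternative values, of which 53 stayed within 1.5 times the count or within the 95% interval of the share. For single genes, the number of lists with a peak was recomputed for 64 results, giving 480 alternative values. Of these, 339 stayed the same and 141 changed. For genes with a peak in the body or within 10 kb, the higher-scoring 50% of peaks gave 5 at day 3 (14.8% of all genes) and 13 at day 6 (24.8%). Lists shortened to the 4867 highest scores gave 10 for ESC Oct1 (16.0%), 11 for ESC Oct4 (14.5%) and 18 at day 6 (29.9%), and the gene body alone gave 8 at day 3 (11.6%). For peaks at a gene end, the higher-scoring 50% gave 2 for ESC Oct4 (4.99% of all genes), 1 at day 3 (9.17%) and 5 at day 6 (17.4%), of 32 genes, so that the last 2 counts fell below the share over all genes. The shortened lists gave 2 for ESC Oct1 (4.31%), 1 for ESC Oct4 (2.44%) and 9 at day 6 (21.3%). A distance of 5 kb gave 10 for ESC Oct1 (19.2%), 11 for ESC Oct4 (23.2%) and 12 at day 3 (18.5%), and counting from a transcription start gave 3 for ESC Oct4 (5.49%). Day 6 peaks on ESC Oct4 sites were found at 2 of 28 genes when a reciprocal overlap of 50% was required (9.91% of all genes with a day 6 peak nearby). Among protein-coding genes within the length range of the 32 genes, 37.6%, 43.0%, 26.8% and 46.3% had a peak in the body or within 10 kb in ESC Oct1, ESC Oct4, day 3 and day 6, and 9.53%, 9.91%, 15.7% and 33.6% had one at a gene end. Stricter rules lower counts by their construction, and other causes were not tested. When a peak counted for the nearest gene alone, 25 genes had a day 6 peak in place of 28 (30.6% of all genes). No paired analysis was possible because each group had 1 library. Depth, threshold and variation between cultures are unknown, so a missing peak means that none was listed.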

Other observations

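Among the 153 genes of the comparison lists, 7 (4.58%) had an Oct1 peak at an end in the highest 10% of scores of a list, where 5.61% of all protein-coding genes did. Egln2, a prolyl hydroxylase that marks hypoxia-inducible factor for degradation, had one at day 6 with score 3195 (rank 76 of 7758, chr7:27166141-27167120). Uqcrq, a subunit of respiratory complex III, had such a peak in ESCs (score 654, rank 603 of 17709) and at day 6 (score 1502, rank 669 of 7758). Of the oxidative phosphorylation genes, Ndufa3 (score 371) and Atp5g1 (score 577) had one in ESCs, and Ndufa10 (score 1712) and Cox4i1 (score 1537) at day 6. Mdh2, of the tricarboxylic acid cycle, had one at day 3 (score 638, rank 465 of 4867).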
